A study of Homo sapiens with 23 samples.

Results

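The 10 genes described here encode large enzymes that write or erase marks on histones, and their RNA was measured in SUDHL5 cells treated with CDK-TCIP1. They were chosen by name, CREBBP, EP300, KMT2A, KMT2B, KMT2C, KMT2D, SETD1A, SETD1B, SETD2 and KDM6A, out of 58592 genes with a matched transcript. All 10 were among the 17743 genes with enough counts to be tested. SUDHL5 is an established human line of diffuse large B-cell lymphoma, a cancer of B cells. CDK-TCIP1 is a bivalent molecule with a ligand of CDK9, a kinase that releases paused RNA polymerase II, at one end. Its other end binds BCL6, a transcriptional repressor of germinal centre B cells. The 2 h treatments were 10 nM in 2 libraries, 30 nM in 4 and 100 nM in 3, and the 4 h treatment was 30 nM, in 3 libraries. The comparison compounds Neg1 and Neg2 were given at 30 nM, with 2 libraries each at 2 h and at 4 h, and the labels do not give how they differ from CDK-TCIP1. The reference was 0.1% DMSO for 4 h (3 libraries), the solvent that all groups shared, so any comparison of a 2 h group with DMSO also differs in time. All 23 libraries came from this line alone. Whether replicates were separate cultures is not stated, and the p-values therefore reflect the spread among these libraries, which could be purely technical.

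CREBBP and EP300 are paralogous coactivators that acetylate histones, among other sites lysine 27 of histone H3 at enhancers. Methyl groups on lysine 4 of histone H3 (H3K4) are added by SETD1A, SETD1B, KMT2A and KMT2B, mainly at promoters, and by KMT2C and KMT2D, mainly at enhancers. SETD2 travels with elongating RNA polymerase II and trimethylates lysine 36 of histone H3 (H3K36) in gene bodies. KDM6A is a subunit of the KMT2C and KMT2D complexes but removes methyl groups from lysine 27 of histone H3, so it is a demethylase and not a methylase. CREBBP, EP300 and KMT2D are known for recurrent inactivating mutations in germinal centre B-cell lymphomas.

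In the GENCODE 29 annotation of GRCh38, the spans of these genes ran from 20.9 kb for KMT2B (ENSG00000272333, chr19:35718019-35738878, plus strand) to 301 kb for KMT2C (ENSG00000055609, chr7:152134922-152436005, minus strand). The median span of the 12991 tested coding genes was 32.15 kb. KDM6A (ENSG00000147050, chrX:44873177-45112602, plus strand) spanned 239 kb, CREBBP (ENSG00000005339, chr16:3725054-3880726, minus strand) 156 kb and SETD2 (ENSG00000181555, chr3:47016429-47163967, minus strand) 148 kb. KMT2A (ENSG00000118058, chr11:118436464-118526832, plus strand) spanned 90.4 kb, EP300 (ENSG00000100393, chr22:41091786-41180079, plus strand) 88.3 kb and KMT2D (ENSG00000167548, chr12:49018975-49059774, minus strand) 40.8 kb. SETD1B (ENSG00000139718, chr12:121804180-121832584, plus strand) spanned 28.4 kb and SETD1A (ENSG00000099381, chr16:30957294-30984664, plus strand) 27.4 kb. KMT2B, SETD1A and SETD1B were therefore shorter than the median gene. The coding sequences were long in every member, from 4.29 kb in KDM6A to 16.6 kb in KMT2D, against a median of 1.40 kb.

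Library totals ran from 17396484 to 26373153 estimated counts. Member totals ran from 377 counts, for SETD1B in the library with the fewest, to 8214 counts, for KMT2A in the library with the most. In a principal component analysis, replicate 1 of CDK-TCIP1 at 100 nM and replicate 1 of Neg2 at 2 h stood apart from their groups, at 62.8 on the second and -43.7 on the third component. The main fold changes that rest on them are given with and without them. Group means, medians over genes and correlations include both libraries. The 6 B-cell markers summed to 1681 to 2443 TPM (a level per unit of transcript length, scaled to the library) in the libraries. The 4 T-cell markers summed to at most 4.55 TPM, the 4 myeloid markers to at most 2.89 TPM and the 4 erythroid markers to at most 0.99 TPM. Of the 6 epithelial and fibroblast markers, which summed to 21.5 to 52.3 TPM, DCN alone held 20.4 to 51.3 TPM. In a bulk sample, fewer cells of a type and less RNA per cell cannot be told apart.

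Per unit of length, KMT2A was the most abundant of the 10 mRNAs in DMSO cells, with 37.6 ± 4.1 TPM (mean ± SD, n = 3). EP300 followed with 37.2 ± 1.9 TPM, SETD2 with 35.9 ± 0.65 TPM and KMT2D with 35.8 ± 4.1 TPM, and these 4 levels differed by less than their spread. SETD1A had 28.2 ± 5.0 TPM, KDM6A 21.9 ± 1.6 TPM and CREBBP 19.7 ± 2.4 TPM, and only the step between KDM6A and CREBBP was within the spread. KMT2B had 13.5 ± 1.7 TPM and KMT2C 13.2 ± 0.56 TPM, which differed by less than their spread. SETD1B was the least abundant, at 3.90 ± 0.070 TPM. The rest of the levels are in CPM, counts scaled to library size with TMM factors, which compares a gene between libraries but not one gene with another. Such levels are relative to the other RNA of the same library. A change in total RNA per cell would not show in them, so each rise or fall below is relative.

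**Figure D1:**
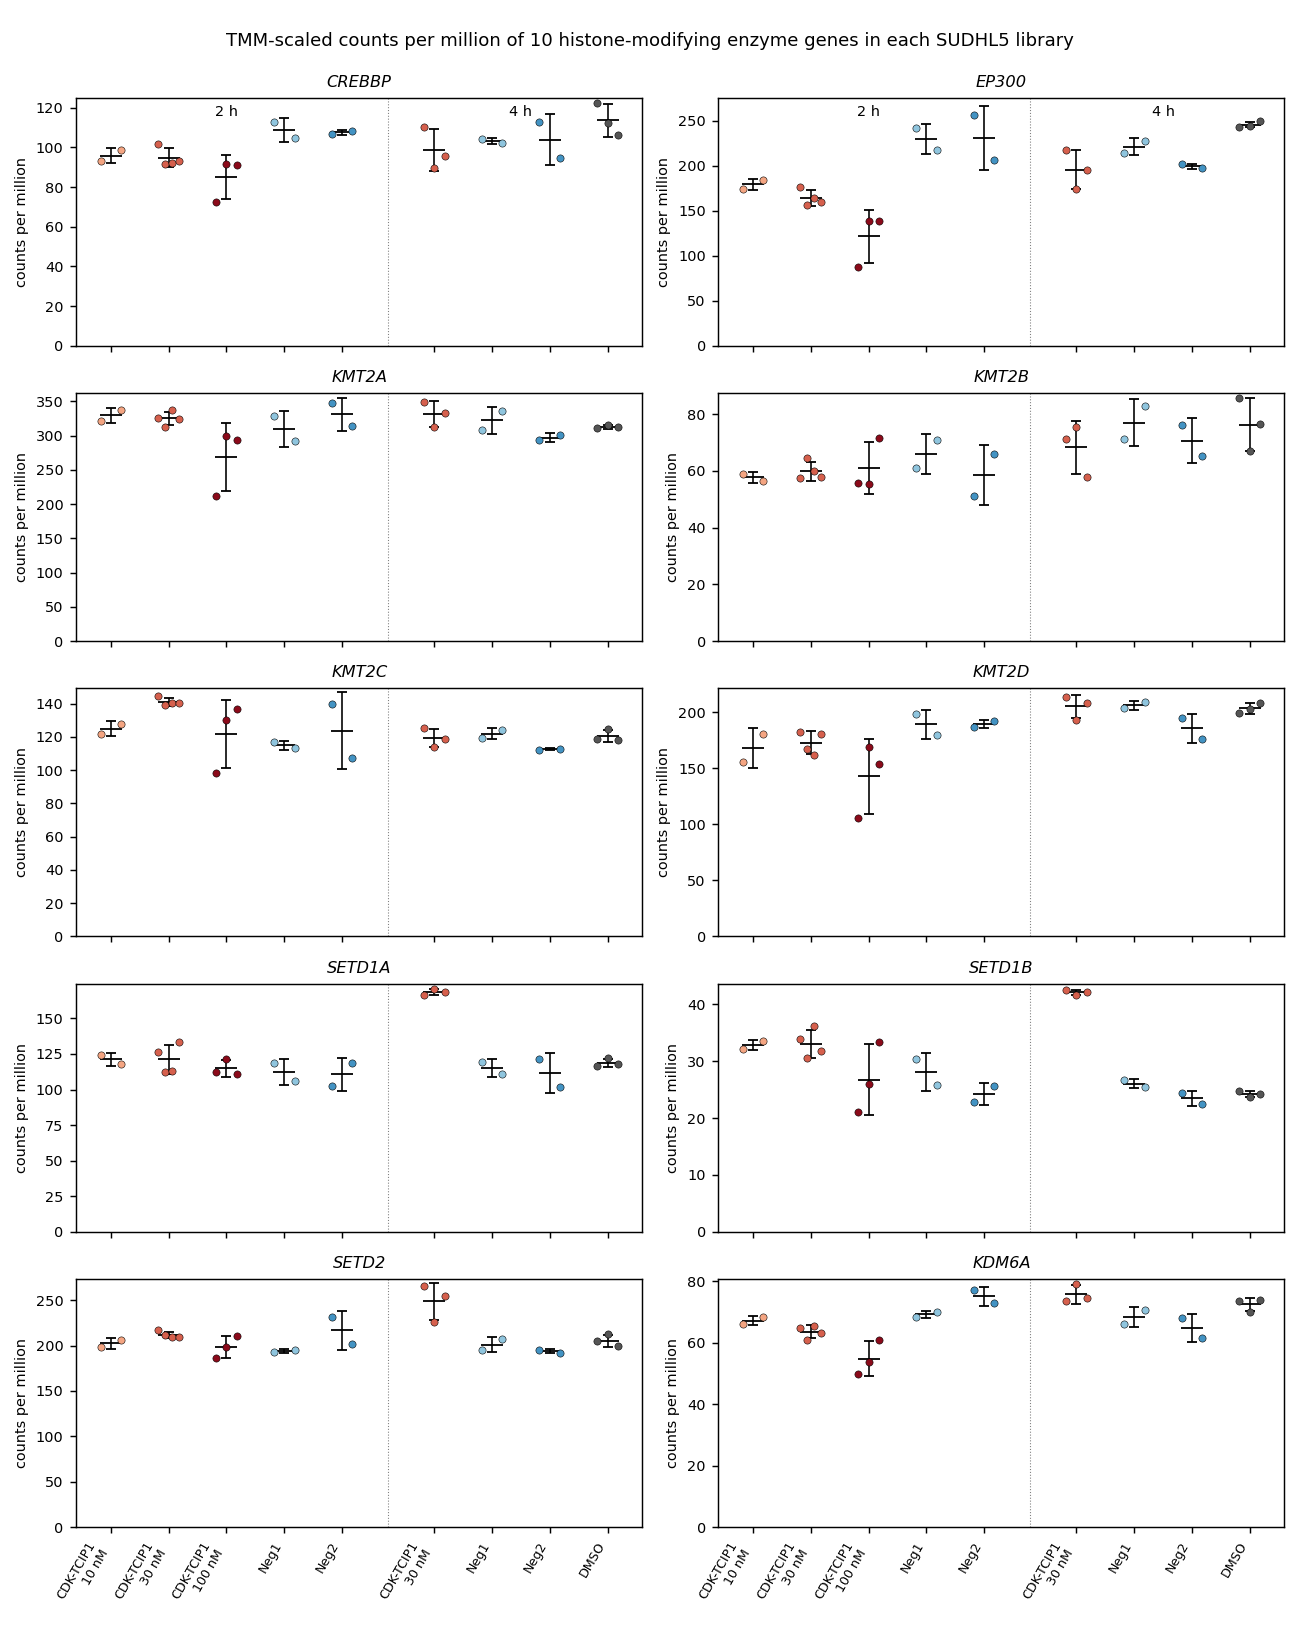
CPM (counts scaled to library size) of each gene in each of the 23 libraries, with 2 h groups left and 4 h groups right of the dotted line; points are libraries, and bars are the group mean ± SD. SETD1A, SETD1B and SETD2 stand highest in the 3 libraries of CDK-TCIP1 at 30 nM and 4 h, apart from 1 library of Neg2 at 2 h (232 CPM) that lies within the SETD2 range, and EP300 is lowest at 100 nM.

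After 4 h at 30 nM, 3 of the 10 genes rose and 1 fell against DMSO of the same time, where 17.5% of all 17743 genes tested rose and 19.3% fell, 36.8% in all. The risers were the H3K4 methylase genes SETD1A and SETD1B and the H3K36 methylase gene SETD2. The acetylase gene EP300 fell. The median log2 fold change of the 10 genes was 0.04, against 0.03 for all genes tested.

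SETD1A and SETD1B encode the catalytic subunits of sister complexes that also hold CXXC1 and WDR82. SETD1A had 167, 171 and 169 CPM in CDK-TCIP1 cells at 4 h, against 119 and 111 CPM in Neg1 cells, 121 and 102 CPM in Neg2 cells and 117, 122 and 118 CPM in DMSO cells. All 3 treated libraries lay above every control library. The log2 fold change of SETD1A was 0.50 ± 0.07 (± SE) against DMSO (edgeR quasi-likelihood test, Benjamini-Hochberg adjusted p = 4.16e-06). Against the mean of Neg1 and Neg2 at 4 h it was 0.57 ± 0.07 (edgeR adjusted p = 1.90e-07).

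SETD1B had 42.5, 41.6 and 42.2 CPM in CDK-TCIP1 cells at 4 h, against 26.6 and 25.5 CPM in Neg1 cells, 24.4 and 22.5 CPM in Neg2 cells and 24.7, 23.7 and 24.1 CPM in DMSO cells. The groups did not overlap here either, and among the 10 genes this was the largest rise. Its log2 fold change was 0.80 ± 0.11 against DMSO (edgeR adjusted p = 1.91e-06) and 0.77 ± 0.10 against the mean of Neg1 and Neg2 (edgeR adjusted p = 1.03e-06).

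SETD2 had 265, 226 and 255 CPM in CDK-TCIP1 cells at 4 h, against 195 and 207 CPM in Neg1 cells, 195 and 192 CPM in Neg2 cells and 205, 212 and 199 CPM in DMSO cells. The lowest treated library was above the highest control. SETD2 rose by 0.28 ± 0.06 on the log2 scale against DMSO (edgeR adjusted p = 0.000517) and by 0.33 ± 0.05 against the mean of Neg1 and Neg2 (edgeR adjusted p = 2.26e-05). In that comparison 4 of the 10 genes rose and 0 fell, against 18.5% and 19.7% of all genes (38.2% together), and the remaining riser was KDM6A. The calls of SETD1A, SETD1B and SETD2 at 4 h held against DMSO, against the mean of Neg1 and Neg2 and against each of Neg1 and Neg2 alone, and with each library left out in turn. The comparisons at 4 h share their CDK-TCIP1 libraries.

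At 2 h the order was different. SETD1A at 30 nM had 126, 112, 113 and 133 CPM in CDK-TCIP1 cells, against 119 and 106 CPM in Neg1 cells and 103 and 119 CPM in Neg2 cells, with overlap and a log2 fold change of 0.12 ± 0.06 (edgeR adjusted p = 0.149). SETD2 had 209.5 to 217 CPM in CDK-TCIP1 cells, against 192 to 232 CPM in Neg1 and Neg2 cells, a log2 fold change of 0.05 ± 0.05 (edgeR adjusted p = 0.513). The 232 CPM was in replicate 1 of Neg2, which stands apart. The other control libraries, at 192 and 196 CPM in Neg1 cells and 202 CPM in Neg2 cells, lay below every treated library. The SETD2 value at 2 h is given only with replicate 1 of Neg2. SETD1B already stood higher, with 33.9, 30.5, 36.1 and 31.7 CPM in CDK-TCIP1 cells, against 30.5 and 25.7 CPM in Neg1 cells and 22.9 and 25.6 CPM in Neg2 cells. Its lowest treated library was just above the highest control, and it rose by 0.34 ± 0.09 (edgeR adjusted p = 0.00601).

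The change between 2 h and 4 h was tested within CDK-TCIP1 at 30 nM, where 4 of the 10 genes were higher at 4 h and 1 was lower, against 10.3% and 11.6% of all genes. SETD1A was higher by 0.48 ± 0.07 on the log2 scale, SETD1B by 0.35 ± 0.10, SETD2 by 0.23 ± 0.05 and KDM6A by 0.25 ± 0.06. The gain over time was also tested against the gain in the mean of Neg1 and Neg2, and the same 4 genes passed, in a test where 5.61% of all genes were higher. The extra log2 change was 0.45 ± 0.09 for SETD1A (edgeR adjusted p = 0.00194), 0.43 ± 0.14 for SETD1B (edgeR adjusted p = 0.0441), 0.29 ± 0.07 for SETD2 (edgeR adjusted p = 0.0122) and 0.37 ± 0.08 for KDM6A (edgeR adjusted p = 0.00478). The calls of SETD1A and KDM6A held with each of 15 libraries left out, that of SETD2 was lost without replicate 1 of CDK-TCIP1 at 4 h (0.24, edgeR adjusted p = 0.0569), and that of SETD1B was lost with 12 of the 15 libraries left out, at log2 changes of 0.35 to 0.44. None of the 4 calls held when counts were scaled by transcript length, at log2 changes of 0.26 to 0.47.

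**Figure D2:**
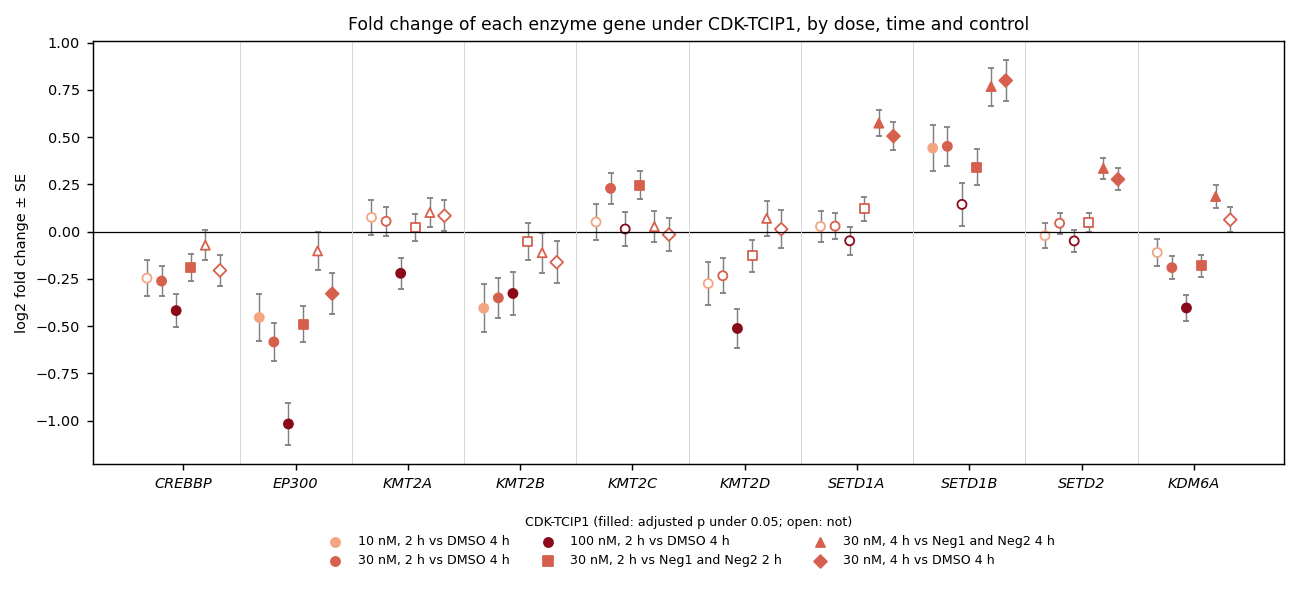
Log2 fold change ± SE of each gene under CDK-TCIP1 by dose, time and control (edgeR quasi-likelihood fit of all 23 libraries); filled symbols passed an adjusted p under 0.05. EP300 reaches -1.02 at 100 nM, and SETD1A, SETD1B and SETD2 are filled and above 0 in both 4 h comparisons.

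EP300 showed the largest fall among the 10 genes. At 2 h it had 175 and 184 CPM in CDK-TCIP1 cells at 10 nM, 176, 156, 164 and 159.5 CPM at 30 nM and 87.8, 138 and 138 CPM at 100 nM. In the same 2 h it had 242 and 218 CPM in Neg1 cells and 257 and 206 CPM in Neg2 cells, and DMSO cells at 4 h had 244, 245 and 249.6 CPM. Every CDK-TCIP1 library at 2 h was below every Neg1, Neg2 and DMSO library of that list. At 4 h CDK-TCIP1 cells had 218, 174 and 195 CPM, against 215 and 228 CPM in Neg1 cells and 202 and 197 CPM in Neg2 cells, which overlap.

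Against the mean of Neg1 and Neg2 at 2 h, EP300 at 30 nM was lower by a log2 fold change of -0.49 ± 0.10 (edgeR adjusted p = 0.000205), and in that comparison 2 of the 10 genes rose and 3 fell, against 19.1% and 18% of all genes (37.1% together). Without replicate 1 or replicate 2 of Neg2 that count was 3. At 10 nM its log2 fold change against the same control was -0.36 ± 0.12 (edgeR adjusted p = 0.0414), the only call among the 10 genes, against 13.5% of all genes, and the doses of the compounds differ there. That call was lost without either 10 nM library, replicate 1 of Neg1 or replicate 1 of Neg2, at -0.28 to -0.41. At 100 nM it was -0.92 ± 0.11 (edgeR adjusted p = 9.22e-08), where 5 of the 10 genes fell and 0 rose, against 22.9% and 22% of all genes. Without replicate 1 of CDK-TCIP1 at 100 nM it was -0.74 (edgeR adjusted p = 7.65e-08). Dose differs as well as compound in every comparison of 100 nM with Neg1 and Neg2, which were given at 30 nM. Between 30 and 100 nM EP300 fell by 0.43 ± 0.11 (edgeR adjusted p = 0.00715), a step called in 3 of the 10 genes, all lower, against 8.45% of all genes lower and 4.44% higher. Without replicate 1 of CDK-TCIP1 at 100 nM that step was -0.25 (edgeR adjusted p = 0.0785), and 0 of the 10 genes were called, while 1 was called without replicate 3 at 30 nM and 6 without replicate 3 at 100 nM. Between 10 and 30 nM 0 of the 10 genes were called, against 2.62% of all genes (0.8% higher and 1.82% lower), and EP300 changed by -0.13 ± 0.12.

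Against DMSO, EP300 had log2 fold changes of -0.45 ± 0.12 at 10 nM, -0.58 ± 0.10 at 30 nM and -1.02 ± 0.11 at 100 nM after 2 h, with edgeR adjusted p of 0.0153, 7.07e-05 and 5.71e-08. These comparisons share the DMSO libraries. Without replicate 1 at 100 nM the value there was -0.83. At 4 h and 30 nM the log2 fold change was -0.33 ± 0.11 (edgeR adjusted p = 0.0195), which without replicate 2 of CDK-TCIP1 at 4 h was -0.25 (edgeR adjusted p = 0.117). Against the mean of Neg1 and Neg2 at 4 h it was -0.10 ± 0.10 (edgeR adjusted p = 0.468), with a 95% confidence interval of -0.32 to 0.12. The call at 10 nM was lost without either 10 nM library, at -0.42 and -0.51, where the lone sample is assumed to vary like the other groups. With counts scaled by transcript length EP300 was -0.35 at 2 h and 30 nM against Neg1 and Neg2 (edgeR adjusted p = 0.0705).

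CREBBP, the paralog of EP300, moved less. At 2 h it had 93.1 and 98.5 CPM at 10 nM, 102, 91.7, 92.4 and 93.0 CPM at 30 nM and 72.5, 91.7 and 91.2 CPM at 100 nM. Neg1 cells at 2 h had 113 and 105 CPM, Neg2 cells at 2 h 107 and 108 CPM and DMSO cells at 4 h 123, 112 and 106 CPM. All 9 treated libraries lay below these 7 control libraries. At 100 nM CREBBP fell by 0.42 ± 0.09 on the log2 scale against DMSO (edgeR adjusted p = 0.000256) and by 0.35 ± 0.08 against the mean of Neg1 and Neg2 at 2 h (edgeR adjusted p = 0.000902). Without replicate 1 these were -0.31 and -0.24, with edgeR adjusted p of 0.00365 and 0.016. At 30 nM the log2 fold change was -0.26 ± 0.08 against DMSO (edgeR adjusted p = 0.011), and without replicate 1 of DMSO -0.22 (edgeR adjusted p = 0.0666). Against the mean of Neg1 and Neg2 at 30 nM and 2 h it was -0.19 ± 0.07 (edgeR adjusted p = 0.0436), a call lost in 6 of 8 fits that left out a library, namely replicates 2, 3 and 4 of CDK-TCIP1, replicate 1 of Neg1 and replicates 1 and 2 of Neg2, at -0.17 to -0.20. At 4 h CREBBP had 110.4, 89.7 and 95.6 CPM in CDK-TCIP1 cells, against 123, 112 and 106 CPM in DMSO cells, which overlap. The log2 fold change was -0.21 ± 0.08 (edgeR adjusted p = 0.0579), and the gene passed the threshold without replicate 1 of CDK-TCIP1 (-0.30, edgeR adjusted p = 0.0121) or replicate 3 of DMSO (-0.27, edgeR adjusted p = 0.0295).

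At 100 nM against DMSO, 6 of the 10 genes fell and 0 rose, where 22% of all genes fell and 20.6% rose, and the median log2 fold change of the 10 was -0.27, against 0.02 for all genes. Besides EP300 and CREBBP these were KMT2A, KMT2B, KMT2D and KDM6A. Without replicate 1 at 100 nM, which stands apart, KMT2A (-0.08) and KMT2B (-0.27) were not called, and SETD1B was called higher. The median of the 10 is given only with that library. At 10 nM 1 of the 10 genes rose and 2 fell, against 5.93% and 7.12% of all genes, and at 30 nM 2 rose and 4 fell, against 16.7% and 17.6% (34.3% together). Both counts include EP300 and KMT2B among the falls and SETD1B among the rises. At 10 nM SETD1B had 32.2 and 33.5 CPM, against 24.7, 23.7 and 24.1 CPM in DMSO cells, and rose by 0.44 ± 0.12 (edgeR adjusted p = 0.0164), and at 30 nM it rose by 0.45 ± 0.10 (edgeR adjusted p = 0.00124). At 100 nM SETD1B had 21.0, 26.0 and 33.3 CPM and a log2 fold change of 0.14 ± 0.11 (edgeR adjusted p = 0.331). Its lowest value was in replicate 1, which stands apart, and without that library it was 0.29 (edgeR adjusted p = 0.0242). Without either 10 nM library 0 of the 10 genes were called at 10 nM, and without replicate 2 of DMSO SETD1B at 10 nM was 0.42 (edgeR adjusted p = 0.0544). Without replicate 1 of DMSO 3 of the 10 genes were called at 30 nM. Of the calls there, KMT2C (0.23 ± 0.08) was lost without any 1 of the 3 DMSO libraries or replicate 1 or 4 of CDK-TCIP1, at 0.20 to 0.24, and KDM6A without replicate 2 of CDK-TCIP1 (-0.17).

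The enhancer H3K4 methylase genes KMT2D and KMT2C did not move alike. KMT2D had 155 and 180.3 CPM at 10 nM, 182, 167, 162 and 180.0 CPM at 30 nM and 105, 168 and 154 CPM at 100 nM. It had 198 and 179.6 CPM in Neg1 cells and 187 and 192 CPM in Neg2 cells at 2 h, and 199, 203 and 208 CPM in DMSO cells. At 100 nM KMT2D fell by 0.51 ± 0.10 against DMSO (edgeR adjusted p = 0.000177) and by 0.41 ± 0.10 against the mean of Neg1 and Neg2 (edgeR adjusted p = 0.000961), with no overlap. The value of 105 CPM is from replicate 1, which stands apart, and without it the log2 fold changes were -0.33 (edgeR adjusted p = 0.00044) and -0.23 (edgeR adjusted p = 0.00731). At 30 nM its log2 fold change was -0.13 ± 0.09 against Neg1 and Neg2 at 2 h (edgeR adjusted p = 0.267). At 4 h it had 213, 193 and 208 CPM in CDK-TCIP1 cells, overlapping the DMSO range, and a log2 fold change of 0.01 ± 0.10 (95% interval -0.20 to 0.23).

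KMT2C had 145, 139, 141 and 141 CPM at 30 nM and 2 h, against 117 and 113 CPM in Neg1 cells and 140.0 and 107 CPM in Neg2 cells. Its log2 fold change was 0.25 ± 0.08 (edgeR adjusted p = 0.0118), although replicate 1 of Neg2, 1 of the libraries that stand apart, lay within the treated range. Against Neg2 alone it was 0.19 ± 0.09 (edgeR adjusted p = 0.121), and without that library 0.39 (edgeR adjusted p = 0.0100). Without replicate 2 of Neg2 the change against both compounds was 0.15 (edgeR adjusted p = 0.123). At 100 nM against both compounds at 2 h KMT2C had a log2 fold change of 0.03 ± 0.08 (edgeR adjusted p = 0.805), and without both libraries that stand apart 0.25 (edgeR adjusted p = 0.000993). At 4 h KMT2C had 125, 114 and 119 CPM in CDK-TCIP1 cells, against 112 to 124 CPM in Neg1 and Neg2 cells and 119, 125 and 118 CPM in DMSO cells. It was the gene lower at 4 h than at 2 h under CDK-TCIP1, by a log2 change of -0.24 ± 0.08 (edgeR adjusted p = 0.0319), a call lost in 5 of 7 fits that left out a library, replicates 1, 3 and 4 at 2 h and replicates 2 and 3 at 4 h, at -0.21 to -0.25. The 6 pseudogene copies of KMT2C held at most 4 counts in any library.

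The promoter H3K4 methylase genes KMT2A and KMT2B gave calls that depended on single libraries or on the control. KMT2A had 212, 299.8 and 294 CPM at 100 nM, against 292 to 348 CPM in Neg1 and Neg2 cells at 2 h and 311, 316 and 312 CPM in DMSO cells. The value of 212 CPM is from replicate 1, which stands apart. The log2 fold change was -0.22 ± 0.08 against DMSO (edgeR adjusted p = 0.0346), -0.08 without that library (edgeR adjusted p = 0.35) and -0.23 without replicate 2 of DMSO (edgeR adjusted p = 0.0572). Against the mean of Neg1 and Neg2 at 2 h it was -0.25 ± 0.08 (edgeR adjusted p = 0.00955), and without replicate 1 -0.11 (edgeR adjusted p = 0.133). In all other comparisons with DMSO, Neg1 or Neg2 KMT2A had log2 fold changes between -0.10 and 0.16 and was not called. KMT2B had 55.6, 55.5 and 71.6 CPM at 100 nM, against 61.0 and 70.9 CPM in Neg1 cells and 51.2 and 65.9 CPM in Neg2 cells at 2 h and 85.5, 67.0 and 76.4 CPM in DMSO cells. It fell by 0.33 ± 0.11 against DMSO (edgeR adjusted p = 0.022), and against the time-matched mean of Neg1 and Neg2 its log2 fold change was -0.03 ± 0.11 (edgeR adjusted p = 0.854). Its call against DMSO was lost without replicate 1 of DMSO (-0.26) and without replicate 1 or 2 of CDK-TCIP1 at 100 nM (-0.27 each). The coding gene IGFLR1 overlaps KMT2B on the opposite strand and had 92.7 to 170 counts, against a median of 1286 counts for KMT2B, and reads of the 2 strands cannot be told apart where the counting used no strand.

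KDM6A was lower at 2 h, and at 4 h it was called higher against the mean of Neg1 and Neg2 but not against DMSO. At 2 h it had 66.1 and 68.2 CPM at 10 nM, 64.6, 60.8, 65.5 and 63.2 CPM at 30 nM and 49.7, 53.8 and 61.0 CPM at 100 nM. Neg1 cells had 68.4 and 70.0 CPM, Neg2 cells 77.2 and 72.9 CPM and DMSO cells 73.6, 70.1 and 73.9 CPM. All 9 treated libraries were below all 7 control libraries, 68.2 CPM being the highest treated and 68.4 CPM the lowest control value. The log2 fold change was -0.18 ± 0.06 at 30 nM against the mean of Neg1 and Neg2 (edgeR adjusted p = 0.0139), -0.39 ± 0.06 at 100 nM against the same control (edgeR adjusted p = 1.13e-05) and -0.40 ± 0.07 at 100 nM against DMSO (edgeR adjusted p = 2.00e-05). Without replicate 1 at 100 nM these last 2 were -0.33 and -0.34. Without replicate 1 of Neg2 the change at 30 nM was -0.16 (edgeR adjusted p = 0.0571).

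At 4 h KDM6A had 73.6, 79.2 and 74.4 CPM in CDK-TCIP1 cells, against 66.1 and 70.7 CPM in Neg1 cells, 68.0 and 61.6 CPM in Neg2 cells and 73.6, 70.1 and 73.9 CPM in DMSO cells. The treated libraries lay above the Neg1 and Neg2 libraries and overlapped DMSO. The log2 fold change was 0.19 ± 0.06 against the mean of Neg1 and Neg2 (edgeR adjusted p = 0.0185) and 0.06 ± 0.07 against DMSO (edgeR adjusted p = 0.495, 95% interval -0.08 to 0.20). The call against Neg1 and Neg2 was lost without replicate 2 of CDK-TCIP1 (0.15, edgeR adjusted p = 0.0963), replicate 1 of Neg1 (0.16, edgeR adjusted p = 0.0876) or replicate 2 of Neg2 (0.13, edgeR adjusted p = 0.157).

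The estimated counts of KDM6A were divided differently among its transcripts in CDK-TCIP1 libraries, though the tests below gave different answers on this. The division lay in a stretch where a pair of cassette exons can be included or skipped. The 2 forms below show the skipped or included 135-base exon (chrX:45060022-45060156, plus strand, GRCh38), which holds 45 codons and is coding throughout in KDM6A-213. Capitals mark the exon, and lower case the 20 bases of the neighbouring exons on each side, 5′ to 3′, from the GENCODE 29 transcripts.
KDM6A-213: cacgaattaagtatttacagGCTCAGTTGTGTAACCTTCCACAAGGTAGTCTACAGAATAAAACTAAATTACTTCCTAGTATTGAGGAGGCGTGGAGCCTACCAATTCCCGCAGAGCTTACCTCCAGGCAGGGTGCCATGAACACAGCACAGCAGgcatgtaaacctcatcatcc
KDM6A-202: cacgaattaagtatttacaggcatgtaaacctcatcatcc
KDM6A-201, KDM6A-206 and KDM6A-213 hold this exon, and KDM6A-202, KDM6A-203, KDM6A-211, KDM6A-212 and KDM6A-214 lack it.

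Transcripts with the 135-base exon held 41.0 and 46.0% of the estimated counts of these transcripts at 10 nM, 30.3, 34.5, 41.2 and 25.4% at 30 nM and 20.7, 30.3 and 22.7% at 100 nM after 2 h. After 4 h at 30 nM they held 34.4, 36.2 and 26.8%. In Neg1 cells they held 81.1 and 53.8% at 2 h and 48.7 and 70.3% at 4 h, in Neg2 cells 52.0 and 76.1% at 2 h and 65.4 and 66.9% at 4 h, and in DMSO cells 71.4, 61.3 and 68.3%. All 12 CDK-TCIP1 libraries were at or below 46.0%, and all 11 other libraries were at or above 48.7%. The means were 43.5 ± 3.6% at 10 nM, 32.8 ± 6.7% at 30 nM and 24.6 ± 5.0% at 100 nM after 2 h, against 67.0 ± 5.1% in DMSO cells. This exon was chosen after its values were seen, so the values are a description and carry no test. They are sums of estimated counts, and the estimates rest on how the authors' software shared reads among similar transcripts.

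The neighbouring 156-base exon (chrX:45060609-45060764) holds 52 codons and is present in KDM6A-202, KDM6A-205, KDM6A-212 and KDM6A-213. Transcripts with it held 32.2 ± 16.6% at 100 nM, 48.9 ± 11.9% at 30 nM and 2 h and 48.6 ± 10.2% at 30 nM and 4 h, against 63.9 ± 8.7% in DMSO cells (mean ± SD). The 30 nM libraries, which reached 59.3% at 2 h and 56.4% at 4 h, overlapped the DMSO range, where the lowest library was at 54.2%. The 100 nM libraries, at 13.5, 37.7 and 45.3%, lay below it. KDM6A-213, which holds both exons, had a share of 12.7 ± 3.6% of KDM6A counts in CDK-TCIP1 cells at 4 h, against 40.5 ± 13.01% in DMSO cells. KDM6A-211, which lacks both, had 26.2 ± 10.7% in CDK-TCIP1 cells and 8.79 ± 4.46% in DMSO cells. By the transcript usage test of edgeR (diffSpliceDGE, adjusted over 65009 transcripts) KDM6A-213 was not called at 4 h against DMSO (log2 difference in usage -1.69, edgeR adjusted p = 0.422). On simulated data for that comparison this test recovered 1.54% of log2 changes of 1, 20.6% of changes of 2 and 66.7% of changes of 3 (60286 transcripts), so a transcript it does not call may still have changed. By limma's diffSplice, an alternative test of the same counts, it was called (-2.21, limma adjusted p = 0.00247), as it was against Neg1 and Neg2 at 4 h (-2.27, limma adjusted p = 0.00182) and at 2 h (-4.29, limma adjusted p = 1.41e-05). A limma test of log2 ratios of transcript counts, added after the data were seen, called none of KDM6A-213, KDM6A-211 and KDM6A-202 in these 3 comparisons, with limma adjusted p of 0.0706 to 0.692. On simulated data for 4 h against DMSO this log ratio test recovered 9.23% of log2 changes of 1, 57.1% of changes of 2 and 81.9% of changes of 3 (53950 transcripts). There limma's diffSplice recovered 71.4% of changes of 2 and 84.7% of changes of 3. How often each test calls an unchanged transcript is not given here.

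**Figure D3:**
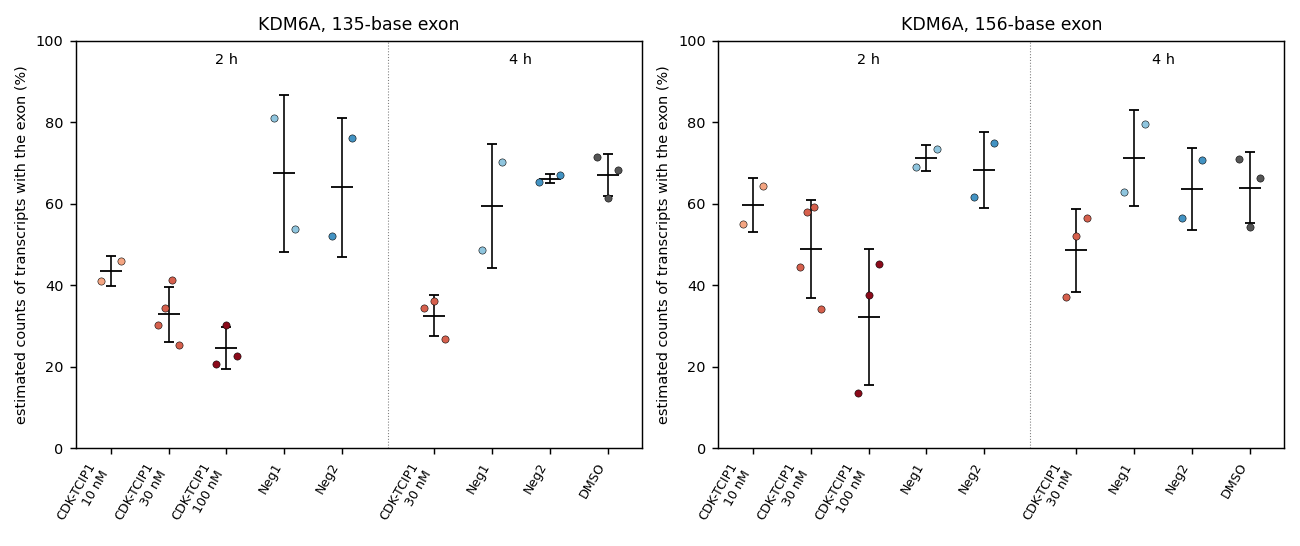
Percentage of estimated counts of the KDM6A transcripts considered that include the 135-base exon (left panel) or the 156-base exon (right panel) in each library, with 2 h groups left and 4 h groups right of the dotted line; bars are the group mean ± SD. In the left panel the 12 CDK-TCIP1 libraries lie at or below 46.0% and the 11 others at or above 48.7%.

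For the other 9 genes the transcripts are described by their shares of the gene's estimated counts. EP300-201 held 99.3% of EP300 counts, SETD1A-201 99.6%, KMT2B-201 97.3% and KMT2D-201 96.2%, averaged over the 23 libraries. CREBBP was split between CREBBP-201 (54.4%) and CREBBP-202 (44.0%), which lacks a 114-base exon (chr16:3791981-3792094), and transcripts with that exon held 49.3 to 62.1% of the 2 in the 9 group means. KMT2A was led by KMT2A-213 (69.7%), KMT2A-201 (14.6%) and the intron-retaining KMT2A-205 (11.5%), SETD2 by SETD2-202 (77.1%) and the nonsense-mediated decay form SETD2-204 (19.5%), and SETD1B by SETD1B-202 (74.7%) and SETD1B-203 (22.8%). SETD1B-203 held 22.9, 28.5 and 29.9% in CDK-TCIP1 cells at 4 h, against 1.56, 16.4 and 26.0% in DMSO cells, with overlap. By limma's diffSplice it was called there (1.92, limma adjusted p = 0.0462), by diffSpliceDGE it was not (0.90, edgeR adjusted p = 1), and at 4 h Neg1 and Neg2 cells had 17.2 to 25.8%. KMT2C was spread over KMT2C-202 (28.7%), the nonsense-mediated decay form KMT2C-212 (22.5%), KMT2C-203 (14.7%), KMT2C-201 (13.1%) and KMT2C-206 (12.9%). Of 61 member transcripts tested, diffSpliceDGE called 1 at 4 h against DMSO, against 0.814% of all transcripts, 0 at 4 h against Neg1 and Neg2, against 1.08%, and 1 at 2 h against Neg1 and Neg2, against 1.02%. These were SETD2-201 and KMT2A-218, each with about 1% or less of its gene's counts. No member's share of full-length coding transcripts was called in any of the 3 comparisons by limma, against 7.1%, 7.18% and 6.42% of 9067 genes, and SETD1B could not be tested there because its counted transcripts were all full length.

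Neg1 and Neg2 were set against DMSO at 4 h and against each other at 2 h and 4 h, which with CDK-TCIP1 against each of them at both times makes 8 comparisons of compounds at matched dose and time or with the solvent. By edgeR 0 of the 10 genes and 0 of all 17743 genes were called in those 4 without CDK-TCIP1, that is 0% of all genes. Against DMSO, 0 of the 10 genes had a log2 fold change above 0 in Neg2 cells (median -0.11, against -0.003 for all genes) and 5 in Neg1 cells (median -0.01). In Neg1 against Neg2, 9 of the 10 were above 0 at 4 h (median 0.12, against 0.002 for all genes) and 4 at 2 h. An unadjusted p under 0.05 was reached by 0 members for Neg1 against DMSO (770 genes in all), by EP300 and KDM6A for Neg2 against DMSO (1063 genes), by SETD2 for Neg1 against Neg2 at 2 h (1126 genes) and by 0 members at 4 h (464 genes), and DESeq2 called 0 members in each. EP300 had a log2 fold change of -0.30 ± 0.12 in Neg2 cells against DMSO (edgeR adjusted p = 0.785), with a 95% interval of -0.57 to -0.04. It was called without a filter on low counts (-0.31, edgeR adjusted p = 0.00583) and with only the groups compared in the fit (-0.30, edgeR adjusted p = 0.0161). In Neg1 cells it had -0.15 ± 0.12, with an interval of -0.41 to 0.11. Between Neg1 and Neg2 at 4 h the intervals of SETD1A (-0.15 to 0.23) and SETD2 (-0.10 to 0.21) lie below the rise of each under CDK-TCIP1, as does that of SETD1B (-0.14 to 0.44).

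CDK-TCIP1 at 30 nM and 4 h raised 3 of the 10 genes against Neg1 and 4 against Neg2, with 0 lower in either, where 14.2% of all genes rose and 16.9% fell against Neg1 and 14.4% rose and 16.8% fell against Neg2, 31.1% together in each. SETD1A rose by 0.55 ± 0.08 against Neg1 and 0.59 ± 0.08 against Neg2, SETD1B by 0.69 ± 0.12 and 0.84 ± 0.12, and SETD2 by 0.31 ± 0.07 and 0.36 ± 0.07. KDM6A passed only against Neg2 (0.22 ± 0.07, edgeR adjusted p = 0.022; against Neg1 0.15 ± 0.07, edgeR adjusted p = 0.143), a call lost without replicate 2 of CDK-TCIP1 (0.19) or of Neg2 (0.14). At 2 h CDK-TCIP1 changed 2 of the 10 genes against Neg1, KMT2C higher (0.30 ± 0.09) and EP300 lower (-0.49 ± 0.11), against 27.8% of all genes (13.6% higher and 14.2% lower), and 3 against Neg2, SETD1B higher (0.45 ± 0.12) and EP300 (-0.50 ± 0.11) and KDM6A (-0.24 ± 0.07) lower, against 30.5% (14.8% higher and 15.7% lower). Of these, EP300 was -0.42 without replicate 1 of Neg1 (edgeR adjusted p = 0.0519) and -0.34 without replicate 1 of Neg2 (edgeR adjusted p = 0.101), where the lone sample left is assumed to vary like the other groups. KMT2C was 0.31 and 0.27 without replicate 1 and 2 of Neg1, and without replicate 1 of Neg2 SETD1B was 0.36 and KDM6A -0.20, none of them called.

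Upstream sequence was compared in windows of 250 bases before the RefSeq transcription start (GRCh38.p14). They were at hand for 9 of the 10 genes, with 2 starts for CREBBP. These starts can differ from those of the gene spans given above, which come from another annotation. The windows of EP300 and SETD1A lie inside those spans, which start at chr22:41091786 and chr16:30957294. So does the CREBBP window at chr16:3880121-3880370. The windows of EP300, which was lower than DMSO at every dose at 2 h, and of SETD1A and SETD2, which rose at 4 h, are shown. Capitals mark matches to a GC box or an ETS core, spelled out after the windows, on either strand, 5′ to 3′ on the gene's strand.
EP300, chr22:41092342-41092591, plus strand: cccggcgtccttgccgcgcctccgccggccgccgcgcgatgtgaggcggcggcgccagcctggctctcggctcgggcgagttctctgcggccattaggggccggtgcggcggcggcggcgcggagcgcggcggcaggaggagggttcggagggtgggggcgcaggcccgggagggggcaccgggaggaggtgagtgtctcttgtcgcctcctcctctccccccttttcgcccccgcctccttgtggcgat
SETD1A, chr16:30957504-30957753, plus strand: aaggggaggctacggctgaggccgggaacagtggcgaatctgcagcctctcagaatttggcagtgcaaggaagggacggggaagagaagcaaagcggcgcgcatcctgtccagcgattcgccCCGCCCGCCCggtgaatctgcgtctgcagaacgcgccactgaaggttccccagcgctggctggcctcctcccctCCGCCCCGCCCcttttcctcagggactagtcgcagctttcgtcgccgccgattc
SETD2, chr3:47164114-47164363, minus strand: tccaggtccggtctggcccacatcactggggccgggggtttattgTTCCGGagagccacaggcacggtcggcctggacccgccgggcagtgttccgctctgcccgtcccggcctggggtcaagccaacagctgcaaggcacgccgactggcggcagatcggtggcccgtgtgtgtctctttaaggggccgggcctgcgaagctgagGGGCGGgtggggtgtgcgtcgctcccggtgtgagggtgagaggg
All windows were rich in G and C, from 65.2% in SETD1A to 92.0% in KMT2C, against a median of 58.0% over the 35116 promoters of the table. GGGCGG (a GC box) was found in the windows of 8 of the 9 genes, EP300 being the exception, and in 42.6% of all promoters. For EP300 the bases before the start of its span were not searched. CACGTG (an E box, 6.34% of all promoters) was found in KMT2D and KDM6A, TGACG (part of a CRE, 21.2%) in CREBBP, KMT2A and KDM6A, and CCGGAA (an ETS core, 14.5%) in KMT2A and SETD2. TTCNNNGAA (a shape of BCL6 site, 6.57%) and TATAAA (a core promoter element, 10.7%) were found in none. A match is a description of letters in these windows, and both strands were searched.

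Length of the gene was set beside the changes at 100 nM. The median log2 fold change of tested coding genes against DMSO was 0.11 under 10 kb, 0.00 from 10 to 25 kb, -0.06 from 25 to 50 kb, -0.09 from 50 to 100 kb, -0.06 from 100 to 200 kb and 0.18 over 200 kb. KDM6A (-0.40 ± 0.07) and KMT2C (0.01 ± 0.09) both lie in the last class, of which 8.69% were called lower and 28.95% higher. KMT2D (-0.51 ± 0.10), in the class from 25 to 50 kb, fell further than CREBBP (-0.42 ± 0.09), whose span is longer, though their standard errors overlap. Without replicate 1 at 100 nM, which stands apart, KMT2D was at -0.33 and CREBBP at -0.31. At 4 h the 2 largest rises, SETD1B and SETD1A, were in genes of 28.4 and 27.4 kb.

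**Figure D4:**
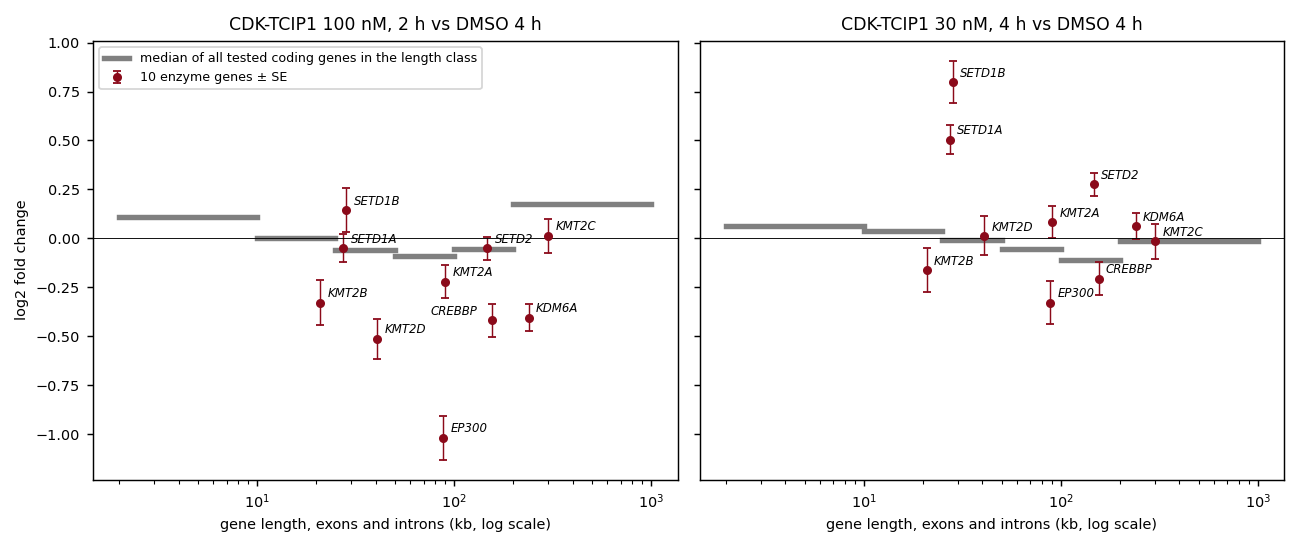
Log2 fold change ± SE of the 10 genes against gene span on a log axis, at 100 nM and 2 h (left) and at 30 nM and 4 h (right), each against DMSO at 4 h; grey bars are the medians of all tested coding genes in 6 classes of span, with the outer ends of the first and last bar drawn at fixed values. EP300 lies at -1.02 where its class has a median of -0.09, and KMT2C and KDM6A differ within the class over 200 kb.

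Genes that act with or against these enzymes were described by lists, whose counts stand beside 17.5% of all genes higher and 19.3% lower at 4 h and 30 nM against DMSO. At 4 h and 30 nM against DMSO, 2 of 11 other acetylase genes rose, KAT8 (0.51 ± 0.06) and KAT7 (0.36 ± 0.07), and 6 fell, led by KAT6B (-0.60 ± 0.07) and NCOA3 (-0.33 ± 0.05), with a list median of -0.29. Of 14 shared subunits of the H3K4 methylase complexes 2 rose, CXXC1 (0.38 ± 0.10), which binds unmethylated CpG and belongs to the SETD1A and SETD1B complexes, and BOD1L1 (0.16 ± 0.06). The 5 that fell were led by PAGR1 (-0.52 ± 0.12), a subunit of the KMT2C and KMT2D complexes, and MEN1 (-0.45 ± 0.08), the menin of the KMT2A and KMT2B complexes, and also held RBBP5, WDR5 and ASH2L, which all the complexes share and which are named after their values were seen. Of 8 other H3K36 and H3K4 methylase genes tested, 3 rose, led by ASH1L (0.64 ± 0.07) and NSD3 (0.31 ± 0.06), and 3 fell, led by SMYD2 (-0.37 ± 0.08) and NSD1 (-0.32 ± 0.05). These lists had medians of -0.08 and -0.01, against 0.03 for all genes.

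Of 12 other histone lysine methylase genes 3 rose, led by EHMT1 (0.38 ± 0.06) and SUV39H1 (0.34 ± 0.11), both H3K9 methylases, and 4 fell, led by SETDB2 (-0.83 ± 0.10) and KMT5A (-0.24 ± 0.07). Of 7 Polycomb partners, which act with the opposing H3K27 methylase, 0 rose and 2 fell, PHF19 (-0.41 ± 0.07) and SUZ12 (-0.39 ± 0.05). Of 15 lysine demethylase genes other than KDM6A, 2 rose, JMJD1C (0.89 ± 0.10) and KDM3B (0.26 ± 0.06), and 8 fell, led by KDM6B (-0.57 ± 0.09), the close relative of KDM6A, and KDM2B (-0.49 ± 0.06), with a list median of -0.27. Of 14 deacetylase genes tested 4 rose, led by HDAC10 (0.62 ± 0.12) and HDAC6 (0.52 ± 0.12), and 5 fell, led by HDAC4 (-0.45 ± 0.09) and HDAC7 (-0.41 ± 0.07). At 100 nM and 2 h against DMSO, where 20.6% of all genes were higher and 22% lower, the other acetylase genes had 5 higher and 4 lower, the shared subunits 2 higher and 6 lower, and the demethylases 2 higher and 6 lower. Beside these, 4 of the 6 B-cell markers were lower at 4 h against DMSO, and their part in the results was not tested.

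Across the 23 libraries, which fall in 9 groups, the log2 levels of CREBBP and EP300 had a Pearson r of 0.90, EP300 and KMT2D of 0.87, EP300 and KDM6A of 0.82, SETD1A and SETD1B of 0.75, and EP300 and SETD1A of 0.00. Among 9417 other coding genes the nearest in profile were ZNF275 (r = 0.97) and PDP2 (0.95) for EP300, SRCAP (0.91) and MLXIP (0.88) for CREBBP, PRR12 (0.93) and ZNF142 (0.90) for KMT2D, and LRRC8A and GOSR1 (0.94 each) for KDM6A. For SETD1A they were STK35 and CDCA5 (0.92 each), for SETD1B NUFIP2 and ZNF431 (0.93 each), and for SETD2 CDC27 (0.88) and BCL2L11 (0.87). KMT2A was nearest to the acetylase gene KAT6A (0.91) and KBTBD7 (0.88), KMT2C to HUWE1 and NBPF14 (0.82 each) and KMT2B to ARMCX3 and CTU1 (0.72 each), the lowest of the 10. These values describe libraries that share treatments, and carry no test. Replicate 1 of CDK-TCIP1 at 100 nM, which stands apart, was the lowest of the 23 libraries for CREBBP, EP300, KMT2D and KDM6A. It was also the lowest for KMT2A, KMT2C, SETD1B and SETD2. All r values include it, and none was taken without it.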

How the data were processed

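Poly(A) RNA of SUDHL5 cells was sequenced in pairs of reads. Per the submitters' processing notes, the authors used FastQC, cutadapt, kallisto and DESeq2. Tool versions: not given in the sources used here. Deposited tables hold an estimated count and a TPM value for each transcript, made by the authors with kallisto. Of 227912 transcripts, 205964 were matched to GENCODE 29, and unmatched ones held 1.16 to 1.28% of counts. Estimated counts were summed by gene and rounded.

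Genes were tested with edgeR 4.0.16 (R 4.3.3) by the quasi-likelihood test on all 23 libraries, 1 coefficient for each of 9 groups (14 residual degrees of freedom), with TMM scaling (factors 0.880 to 1.04) and edgeR's filter on low counts, which left 17743 genes. Calls had a Benjamini-Hochberg adjusted p under 0.05 over all genes tested. Standard errors came from the fold change and its F statistic, and intervals are 95%. Transcript usage was tested with diffSpliceDGE, and the full-length share (coding sequence of at least 90% of the longest, pseudocount 0.5) with limma 3.58.1. The scripts were tested on simulated data. DESeq2 1.42.0, other filters and scalings and left-out libraries were alternatives. All 10 genes were described, with transcripts of at least 10% of a gene's counts, or 5% if called, and in each list the genes with the largest called changes. The genes and lists were chosen with earlier results of these data known. Replicate numbers did not pair the samples.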

Additional observations from a re-analysis of the deposited data

Results flagged for a closer look

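Within CDK-TCIP1 at 30 nM and 2 h, CREBBP had 102 CPM in replicate 1, far above the other 3 libraries, which lay between 91.7 and 93.0 CPM. It was 1 of 13 sets of 4 to 10 values looked at, and chance flags about 1 in 20. The change between 2 h and 4 h differed between CDK-TCIP1 at 30 nM and the mean of Neg1 and Neg2 for 4 genes by edgeR's quasi-likelihood test of the difference itself, with extra log2 changes of 0.45 for SETD1A, 0.43 for SETD1B, 0.29 for SETD2 and 0.37 for KDM6A.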

How the results depend on the processing

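Of 3758 alternatives for single genes and transcripts, 3557 kept their side of the threshold or lacked an adjusted p. Another 126 lost a call, 74 gained one, and 1 changed sign with a call in either fit. Changes of sign without a call in either fit were counted among the 3557. The 1 counted as a change of sign was KMT2A at 100 nM against DMSO, at 0.041 with counts scaled by transcript length. The cause was not tested for any count below. With counts scaled by transcript length, the number of the 10 genes called fell to 0 at 10 nM against DMSO (3 in the fit reported), 1 at 30 nM and 2 h against DMSO (6), 3 at 100 nM against DMSO (6), 2 at 2 h against Neg1 and Neg2 (5), 1 at 2 h against Neg2 (3), 3 between 4 h and 2 h (5), 1 between 100 and 30 nM (3) and 0 in the difference over time (4). Without a filter it was 5 at 10 nM, 6 between 100 and 30 nM and 1 for Neg2 against DMSO. With only the groups compared it was 5, 1 and 1 in the same comparisons. With protein-coding transcripts alone it was 3 at 2 h against Neg1 and Neg2, 1 against Neg1 and 5 between 100 and 30 nM, where DESeq2 also gave 5. With Neg1 and Neg2 at 2 h in place of DMSO, 1 gene was called at 10 nM. Without the 2 libraries that stand apart, an alternative chosen after seeing the data like the log ratio of transcripts in limma, it was 5 at 10 nM, 1 between 100 and 30 nM and 2 at 10 nM against Neg1 and Neg2.

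Same-numbered libraries did not deviate together (r of -0.044 to 0.044 over 78 pairs). With the replicate block 1 gene was called at 2 h against Neg1 and 0 transcripts at 4 h against DMSO. Of member transcripts, limma's diffSplice called 4 at 4 h against DMSO, 3 at 4 h against Neg1 and Neg2 and 4 at 2 h, while transcripts of at least 5% alone, and the log ratio, gave 0 at 4 h against DMSO and 0 at 2 h. The share of all transcripts that limma's diffSplice called is not given here, so its counts cannot be set against a general rate. The log ratio test called 4.07% of all transcripts at 4 h against DMSO and 3.71% at 2 h.

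With libraries left out in turn, the genes called numbered 3 to 5 at 4 h against DMSO, 3 to 4 against Neg1 and Neg2 and against Neg2, and 3 to 3 against Neg1. At 2 h they numbered 3 to 5 against Neg1 and Neg2, 0 to 2 against Neg1, 1 to 3 against Neg2, 0 to 1 at 10 nM and 4 to 5 at 100 nM against Neg1 and Neg2 (both chosen after seeing the data), and against DMSO 0 to 2 at 10 nM, 3 to 6 at 30 nM and 5 to 6 at 100 nM. They numbered 4 to 5 between 4 h and 2 h, 0 to 6 between 100 and 30 nM, 2 to 5 in the difference over time, and 0 to 0 between 30 and 10 nM and among Neg1, Neg2 and DMSO. Transcripts numbered 0 to 1, 0 to 1 and 0 to 2. Groups of 2 to 4 libraries limit the precision.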
